A study of Mus musculus with 12 samples.

Results

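The comparison of Ezh2 knockout (KO) with wild-type (WT) iMEFs in experiment 2 used 4 of the 10 H3K27me3 peak lists of the series. They are Ezh2 -/- replicates 1 and 2 and Ezh2 WT/WT replicates 1 and 2, chosen by their labels. After exact duplicate lines were dropped, the 4 lists held 29, 382, 18229 and 13384 autosomal peaks, or 32024 of the 461631 peaks of the series. Both groups were C2 iMEFs, fibroblasts from mouse embryos that carry the ROSA26-CreERT2 transgene and a conditional Ezh2 allele and were immortalized with a c-Myc retrovirus; 4-hydroxytamoxifen activates the Cre recombinase that deletes Ezh2. The labels write the control as WT/WT, whereas the methods describe floxed cells before deletion. The clone in the methods came from c-Myc cells with 1 floxed and 1 deleted Ezh2 allele, and it is not named there as C2. The study describes its conditional iMEFs as a clonal line. If C2 is that line, the lists describe 1 clone and not a set of animals. The replicates were numbered in the labels without a statement that they were separate cultures. A legend of the study names biological replicates for its density plots; if those were not separate cultures, p-values measure only technical spread between these samples. A peak list has no reads over the Ezh2 gene and gives no check of its deletion. Of 29 fibroblast genes, the markers of the labelled cell type, 0 had a promoter peak in a KO list, against 0 in both WT lists and 1 in WT replicate 1 alone (of all protein-coding genes, 0.397% had one in a KO list and 3.24% in both WT lists); a peak list does not measure their expression.

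EZH2 and its paralog EZH1 are the catalytic subunits of Polycomb repressive complex 2 (PRC2), which methylates lysine 27 of histone H3. The trimethylated form, H3K27me3, marks silent genes, many of them regulators of development and of other cell lineages. In mammals PRC2 is concentrated at CpG islands, stretches dense in CpG dinucleotides that often lie at gene starts, and the mark spreads from there into broader domains. In cells without EZH2, EZH1 can still carry out some methylation.

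Few H3K27me3 peaks were listed in KO iMEFs, and those few were unlike the WT peaks. KO peaks were wider, lay more often at promoters and were far more often CpG-dense. The 25 regions listed in both KO libraries fell into 11 CpG-dense ones, 10 of them touching a promoter, and 14 CpG-poor ones away from promoters, led by Grinl1a. At 8 of the 10, Wnt7b, Wnt3a and Prdm12 among them, both KO libraries had a peak in the promoter window, and at Neurod2 and Uncx replicate 2 alone reached it. No KO peak was listed at the promoters of Cdkn1a, the HOX gene Hoxb8 and Tgm2, which had peaks in both WT libraries. The same held for 670 of all 695 promoters (96.4%) with a peak in both WT libraries, so these genes are examples of the general case.

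The base sequence of these places is shown first, since KO and WT peaks differed in CpG density. Each is the 200-bp stretch with the most CpG among those tried at fixed steps along its region. A denser stretch between steps could be missed, here and in the counts below. The stretches are on the plus strand of mm9 (NCBIM37), in lower case with each CG in capitals. The first 3 are from regions in both KO lists, at chr15:85411301-85411500 (Wnt7b), chr2:31492526-31492725 (Prdm12) and chr9:71364576-71364775 (Grinl1a). The last 3 are from WT regions without a KO peak, at chr17:29230551-29230750 (Cdkn1a), chr11:96140976-96141175 (Hoxb8) and chr2:157972051-157972250 (Tgm2).
Wnt7b: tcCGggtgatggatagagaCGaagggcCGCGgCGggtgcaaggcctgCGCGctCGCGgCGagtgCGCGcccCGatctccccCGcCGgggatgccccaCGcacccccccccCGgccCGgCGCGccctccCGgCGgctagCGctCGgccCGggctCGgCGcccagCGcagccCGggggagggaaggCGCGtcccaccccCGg
Prdm12: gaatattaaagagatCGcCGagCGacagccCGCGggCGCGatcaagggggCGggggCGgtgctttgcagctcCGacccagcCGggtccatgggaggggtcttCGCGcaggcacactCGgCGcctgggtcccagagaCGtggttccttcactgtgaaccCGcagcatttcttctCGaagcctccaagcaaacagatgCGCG
Grinl1a: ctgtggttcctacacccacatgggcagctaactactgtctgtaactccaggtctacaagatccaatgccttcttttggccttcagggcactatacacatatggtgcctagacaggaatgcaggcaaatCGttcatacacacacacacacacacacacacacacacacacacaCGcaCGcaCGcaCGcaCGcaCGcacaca
Cdkn1a: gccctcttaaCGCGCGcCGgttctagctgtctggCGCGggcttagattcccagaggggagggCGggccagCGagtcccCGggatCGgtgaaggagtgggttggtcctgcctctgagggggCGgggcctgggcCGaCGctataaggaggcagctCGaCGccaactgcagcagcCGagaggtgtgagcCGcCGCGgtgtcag
Hoxb8: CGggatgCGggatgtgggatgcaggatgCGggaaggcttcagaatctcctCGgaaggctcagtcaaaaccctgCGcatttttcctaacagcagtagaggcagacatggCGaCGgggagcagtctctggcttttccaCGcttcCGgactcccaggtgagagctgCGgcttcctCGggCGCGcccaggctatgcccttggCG
Tgm2: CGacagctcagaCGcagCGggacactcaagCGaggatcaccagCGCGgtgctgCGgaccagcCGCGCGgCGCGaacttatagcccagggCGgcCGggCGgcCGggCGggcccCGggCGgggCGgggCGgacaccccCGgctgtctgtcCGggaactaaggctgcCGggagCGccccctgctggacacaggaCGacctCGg

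The stretch held 32 CG at Wnt7b and 20 at Prdm12, against 7 at Grinl1a, where most of them stand in a CA-rich repeat. The WT regions without a KO peak shown here were CpG-dense too, with 19 CG at Cdkn1a, 14 at Hoxb8 and 27 at Tgm2, so a dense stretch was no mark of the KO regions alone. Over all regions, the densest 200 bp held at least 10 CG in 12 of the 25 KO regions (48.0%), in 18 of the 74 WT regions with a KO peak (24.3%) and in 323 of the 3862 WT regions without one (8.36%). A WT region here is a set of overlapping peaks of both WT libraries, joined, and a KO region is the same for both KO libraries. The median was 8 CG in KO regions, 6 in WT regions with a KO peak and 5 in WT regions without one. A wider region has more 200-bp stretches to choose from, so these counts also follow width. The median width was 3100 bp for CpG-dense and 2650 bp for CpG-poor KO regions, against 1100 bp for all WT regions. Over whole regions, median CpG per 100 bp was 1.67 in KO regions. It was 1.11 in WT regions with a KO peak and 1.10 in those without.

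The first question was how much of the mark was listed after Ezh2 deletion. Peaks covered 0.0589 Mb in KO replicate 1 and 0.481 Mb in KO replicate 2, against 14.9 Mb in WT replicate 1 and 11.2 Mb in WT replicate 2. These lengths are 0.00238% and 0.0195% of the autosomes in KO iMEFs, against 0.601% and 0.455% in WT iMEFs. The groups did not overlap, and in proportion to their mean the KO libraries differed more from each other than the WT libraries did. Covered length averaged 0.270 ± 0.298 Mb in KO iMEFs and 13.0 ± 2.55 Mb in WT iMEFs (SD, n = 2 each), so the KO mean was 2.07% of the WT mean (exact permutation test, two-sided, p = 0.333). With 2 libraries a group, 0.333 is the smallest p this test can give, and it was the p, raw and adjusted over the 6 library measures by the Benjamini-Hochberg method, of all 6. The KO mean of the peak number, 206 ± 250, was 1.3% of the WT mean, 15807 ± 3426 (SD, n = 2 each, same exact test). Which KO library is counted decided both values. Without KO replicate 1, covered length was 3.69% and the peak number 2.42% of WT, and without KO replicate 2 they were 0.451% and 0.183%. The methods describe a scaling down of the KO reads, and its part in these values was not tested. A list holds positions only, so it does not tell a site with less mark from a site with none, and fewer cells carrying the mark cannot be told apart from less of it per cell.

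**Figure D1:**
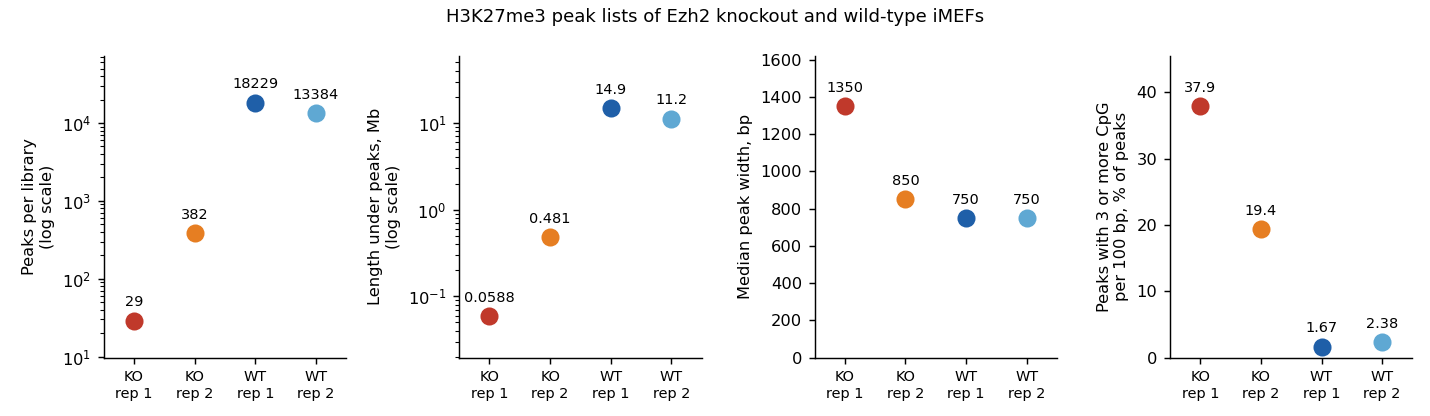
Values of the 4 peak lists, 1 point a library, KO left of WT: number of autosomal peaks and Mb under peaks (log axes), median peak width in bp, and percent of peaks with 3 or more CpG per 100 bp. KO replicate 1 (29 peaks) and KO replicate 2 (382 peaks) lie below both WT libraries in number and length, and above both in width and in the share of CpG-dense peaks.

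KO peaks were wider than WT peaks. The median width was 1350 and 850 bp in KO replicates 1 and 2, against 750 bp in each WT library. The difference of the means was 350 bp (exact permutation test, two-sided, p = 0.333). It was 100 bp without KO replicate 1 and 600 bp without KO replicate 2. Peaks of at least 2000 bp made up 27.6% and 13.4% of the KO lists, against 1.08% and 1.64% of the WT lists. The widest peak spanned 7950 bp in KO replicate 1 and 13500 bp in KO replicate 2, against 4450 and 5000 bp in WT replicates 1 and 2. So although the KO lists were short, each held single peaks longer than any WT peak.

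KO peaks also had another base composition. Of the KO peaks, 11 of 29 (37.9%) in replicate 1 and 74 of 382 (19.4%) in replicate 2 had 3 or more CpG per 100 bp, against 304 of 18229 (1.67%) and 318 of 13384 (2.38%) in WT replicates 1 and 2. The share was higher in both KO libraries than in both WT libraries, and this limit was chosen after the values were seen, so no test was run. The gap was also present within classes of width. Among peaks of 1000 to 2000 bp the shares were 50% and 28.4% in KO, against 2.05% and 2.75% in WT, and among peaks under 1000 bp 28.6% (2 of 7) and 12.2% in KO, against 1.57% and 2.28% in WT. Over all bases under peaks, CpG density was 2.43 and 2.16 per 100 bp in KO, against 1.09 and 1.21 in WT and 0.851 over the autosomes. GC content was 50.7% and 51.6% in KO, against 47.3% and 48.7% in WT, a difference of 3.14 percentage points between the means (exact permutation test, two-sided, p = 0.333).

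Peaks fell into promoters, the 2500 bp on either side of a gene start, more often in KO. They held 20.3% and 23.6% of the peak bases in KO replicates 1 and 2, against 9.39% and 10.5% in WT replicates 1 and 2, and make up 4.01% of the autosomes. The difference of the means was 12.0 percentage points (exact permutation test, two-sided, p = 0.333). Gene bodies held 56.6% and 39.1% of the bases in KO, against 34.9% and 36.5% in WT. Sequence between genes held 23.1% and 37.3% in KO, against 55.7% and 53.0% in WT.

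Around gene starts the KO and WT lists had different shapes. In KO replicate 2 coverage was highest between 1000 and 1500 bp downstream of the start, with 0.175% of bases under peaks, 7.09 times its level at 8 to 10 kb. KO replicate 1 was highest in the same bin, at 0.0254%, and had no peak at 8 to 10 kb. WT coverage was highest upstream, with 1.83% at 2000 to 1500 bp before the start in replicate 1 and 1.39% at 1500 to 1000 bp before it in replicate 2, which were 1.81 and 1.74 times the levels at 8 to 10 kb. Within 500 bp of the start coverage was 0.00791% and 0.0860% in KO, against 0.855% and 0.791% in WT. The highest bin, above all others by definition, was 3.21 and 2.03 times this level in KO, against 2.14 and 1.76 times in WT. Relative to 8 to 10 kb, coverage within 500 bp was 3.49 times as high in KO replicate 2. In WT replicates 1 and 2 it was 0.849 and 0.988 times the level at 8 to 10 kb. KO replicate 1 has 29 peaks in all, so its shape is that of a few loci.

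**Figure D2:**
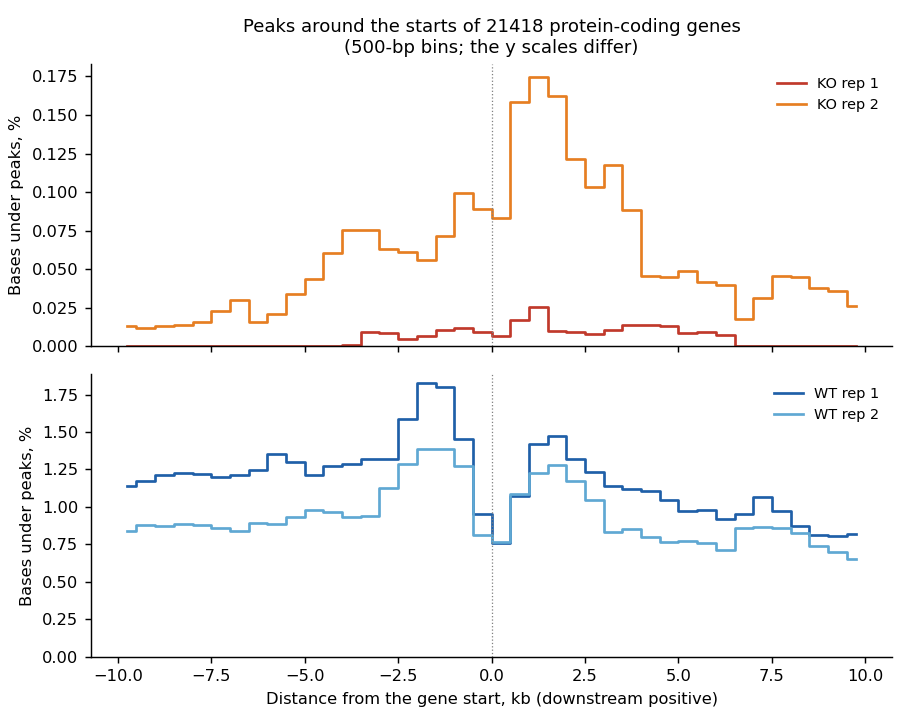
Percent of bases under peaks in bins of 500 bp within 10 kb of the starts of 21418 protein-coding genes, KO libraries above and WT libraries below on separate scales. Both KO lines peak 1000 to 1500 bp downstream of the start (0.0254% and 0.175%), and both WT lines are highest upstream of it. Within 500 bp of the start, coverage is 3.49 times the level at 8 to 10 kb in KO replicate 2. In WT replicates 1 and 2 it is 0.849 and 0.988 times that level.

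The 25 regions in both KO lists came from 28 of the 29 peaks of KO replicate 1 and 25 of the 382 of KO replicate 2. The share of KO replicate 2 peaks also listed in replicate 1 was 37.3% for peaks of at least 2000 bp and 0.800% for peaks under 750 bp. The shared peaks had a median width of 2750 bp and the others 850 bp. KO replicate 1 was thus nearly a subset of replicate 2, and mostly of its wide peaks. The peaks were unevenly spread over chromosomes. Chromosome 9 held 40.1% and 12.3% of the peak bases in KO, against 4.37% and 4.21% in WT, and chromosome 1 held 0 and 2.89% in KO, against 12.1% and 12.0% in WT.

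The widest stretch with KO peaks lay in Grinl1a, also annotated as part of Gcom1, which encodes a protein associated with RNA polymerase II. Its region at chr9:71361101-71374600 measured 13500 bp, of which peaks covered 11100 and 13500 bp in KO replicates 1 and 2, against 3700 and 4300 bp in WT replicates 1 and 2. The neighbouring region at chr9:71351801-71360750 measured 8950 bp, with 7100 and 8950 bp under KO peaks, against 5250 bp in each WT library. Both regions lie in the gene body, largely in introns (185 and 883 bp of exon), and had 0.874 and 0.950 CpG per 100 bp. A region was taken from the KO lists, so its KO coverage is high by that choice and only the WT values are free.

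Wnt7b, a secreted WNT ligand, had the widest KO region at a promoter (chr15:85406001-85413650, 7650 bp). Peaks covered 6450 and 7600 bp of it in KO replicates 1 and 2, against 1600 and 0 bp in WT replicates 1 and 2. Uncx, a homeodomain factor of the somites and neurons, had a region of 5750 bp at chr5:140020051-140025800 with 1900 and 5750 bp in KO, against 0 bp in both WT libraries. Both are genes that the KO lists of experiment 2 hold over kilobases where its WT lists hold little or nothing. Neurod2, a bHLH factor of neurons, had 3100 and 5350 bp of its 5350 bp region (chr11:98184351-98189700) in KO, against 850 and 2750 bp in WT. Prdm12, a zinc-finger factor of pain-sensing neurons, had 2150 and 4250 bp of 4250 bp (chr2:31492401-31496650) in KO, against 0 bp in both WT libraries. WT peaks did lie next to the Prdm12 region: within 15 kb of its centre, peaks covered 2.15 and 8.25 kb in KO, against 3.75 and 3 kb in WT. In experiment 1, WT peaks covered 4467 and 4519 bp of the Wnt7b region, and KO peaks 0 bp. For the Uncx region the WT values of experiment 1 were 3219 and 3520 bp, and the KO values 0 bp.

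Of the other wide KO regions, 4 lay in sequence between genes or in a gene body. For those between genes the distance to the nearest gene is given. The region 22578 bp from Adamts8, a secreted metalloproteinase (chr9:30794001-30800400, 6400 bp), had 2500 and 6150 bp in KO, against 5500 and 2450 bp in WT. The region 74786 bp from C130026L21Rik (chr5:112091751-112096600, 4850 bp) had 850 and 4850 bp in KO, against 2200 and 3700 bp in WT. At these 2 places WT replicate 1 covered more than KO replicate 1, and both WT libraries covered less than KO replicate 2. The region 12708 bp from Nrbp2 (chr15:75933151-75936450, 3300 bp) had 1800 and 3300 bp in KO, against 1850 bp in each WT library. The region in an intron of Adipor2, an adiponectin receptor (chr6:119347651-119350900, 3250 bp), had 2800 and 3250 bp in KO, against 1450 and 1400 bp in WT.

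By CpG density the 25 regions split with a gap, into 11 with 4.21 to 7.71 CpG per 100 bp and 14 with 0.196 to 1.89. The dense class held 10 promoters and the region near Nrbp2, and the poor class held no promoter. Of the 11 dense regions, 6 had a peak in both WT libraries and 4 in neither (Uncx, Prdm12, Wnt3a and Elfn1). Of the 14 poor regions, 8 had a peak in both and 2 in neither, in 4933421E11Rik and near Neurod2. The median share of a region under peaks was 55.8% and 100% in KO, against 17.7% and 33.9% in WT, for the dense class, and 69.5% and 100% in KO, against 45.0% and 49.7% in WT, for the poor class. The classes were drawn after the values were seen and were not tested. Experiment 1, with another antibody and platform, had a peak in both of its WT lists at all 11 dense regions and at 13 of the 14 poor ones.

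**Figure D3:**
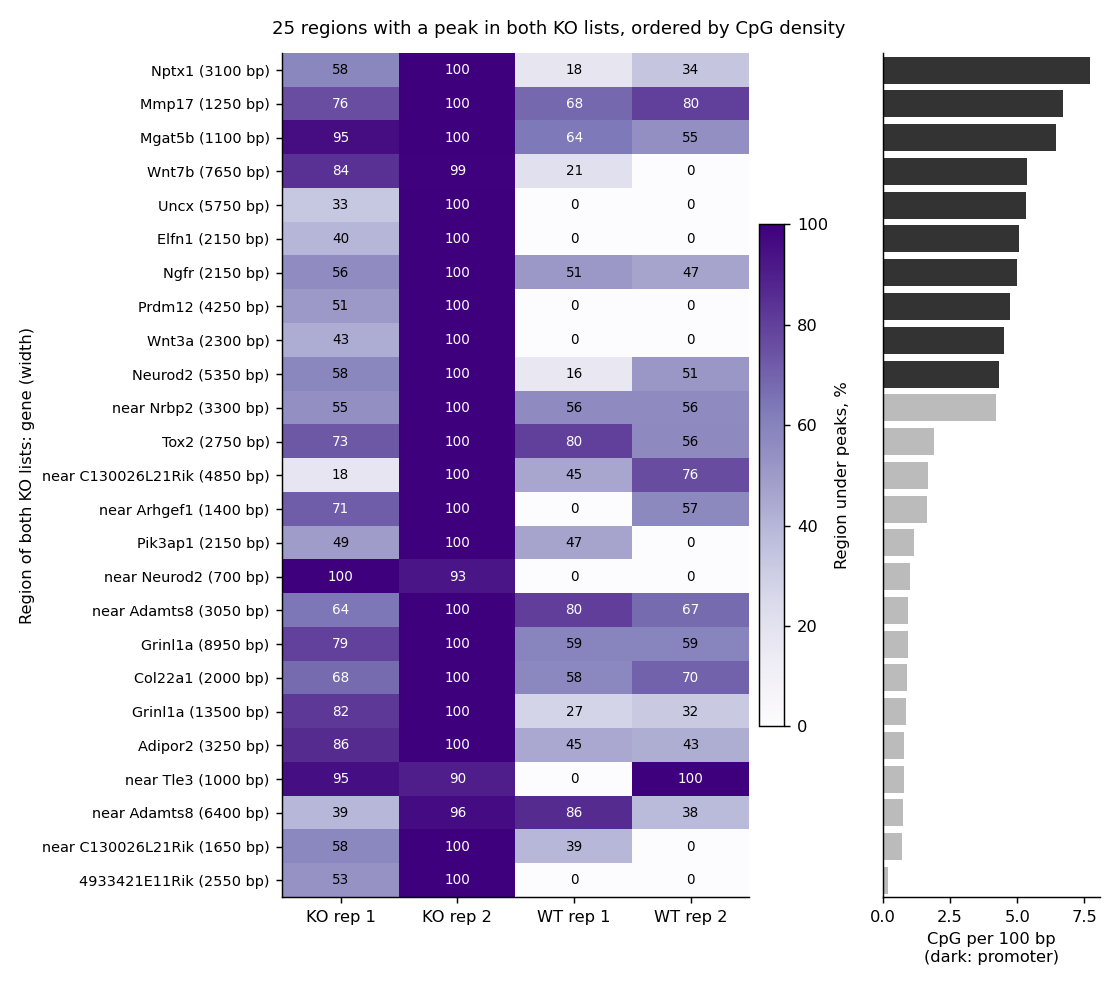
Percent of each of the 25 regions of both KO lists that lies under peaks (colour and number), KO columns left of WT, with rows ordered by CpG per 100 bp (bars, dark for promoters). Regions were chosen from KO peaks, so KO columns are high; WT columns are at 0 in both libraries for Uncx, Elfn1, Prdm12, Wnt3a, the region near Neurod2 and 4933421E11Rik.

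The longer list of KO replicate 2 overlapped the WT lists less often than the 25 regions did, of which 14 had a peak in both WT libraries and 6 in neither. Of its 382 peaks, 67 overlapped a peak of both WT libraries, 113 of a single WT library and 202 (52.9%) of neither. In KO replicate 1 the counts were 14, 8 and 7 of 29. CpG density showed no gap there, with 49 peaks at 2 to 3 CpG per 100 bp, and 14 of the 120 peaks with under 1 (11.7%) lay at promoters. Among KO replicate 2 peaks with 3 or more CpG per 100 bp, 36.5% overlapped a WT peak, against 50% of those with under 1. Most KO peaks without a WT peak lay near one: the median distance of the 202 was 4.25 kb, and 292 of the 382 (76.4%) lay on or within 5 kb of a WT peak. KO peaks were also listed elsewhere in the series. In both WT libraries of experiment 1, joined, 28 of the 29 and 332 of the 382 (86.9%) had a peak, among them 161 of the 202. The Ezh1 rescue library had a peak at all 29 and at 370 of the 382, and 10 peaks of KO replicate 2 were in no WT or rescue list. WT peaks overlapped these lists often too. Of the peaks of WT replicates 1 and 2, 67.6% and 66.5% overlapped the joined WT libraries of experiment 1. The Ezh1 rescue library had a peak at 84.8% and 86.5% of them.

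Seen from the WT side, 3862 of the 3936 WT regions (98.1%, 95% Wilson interval 97.6% to 98.5%, counting error only) had no KO peak. With 29 and 382 KO peaks, few of the 3936 could have had one. The 74 with a KO peak were all in the list of KO replicate 2, and 17 of them in that of KO replicate 1 as well. Wider WT regions had a KO peak more often, 5 of 76 (6.58%) at 3000 bp or more against 14 of 1336 (1.05%) under 1000 bp; a wider region has more bases to overlap, and the share of bases under KO replicate 2 peaks was 3.03% against 0.976%, but under KO replicate 1 peaks it was 0% against 0.0681%. Among WT regions with 4 or more CpG per 100 bp, 7 of the 35 (20%) had a KO peak. At 3 to 4 the count was 0 of 67 and at 2 to 3 it was 7 of 292 (2.40%). It was 32 of 1928 (1.66%) at 1 to 2 and 28 of 1614 (1.73%) under 1. The median width of the 35 was 1200 bp, close to the 1050 to 1150 bp of the other classes. The limit of 4 also bounds the dense class of KO regions, which was drawn after its values were seen. The 74 include WT regions that overlap CpG-dense KO regions, such as those at Nptx1 and Ngfr. The shares are therefore not separate from the choice of KO regions and were not tested.

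The WT regions of greatest width were mostly without a KO peak. The 5900-bp region in Slc4a1, the anion exchanger of red cells (chr11:102217901-102223800), had 0 and 1400 bp under KO peaks, against 5100 and 4350 bp in WT. The next 4 had 0 bp in both KO libraries. They lay in Skap1, a T cell adaptor (5650 bp, 4950 and 3800 bp in WT), at Tgm2, transglutaminase 2 (5100 bp, 4950 and 5000 bp in WT), in Galnt9, a glycosyltransferase (4900 bp, 4450 and 4150 bp in WT), and in Plxdc1, a plexin-domain membrane protein (4800 bp, 4550 and 4750 bp in WT). Plxdc1 was the only place of these 5 without a peak in either WT library of experiment 1.

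WT peaks were broken into short pieces that agreed better by domain than by peak. Of the WT peaks, 22.2% in replicate 1 and 30.2% in replicate 2 overlapped a peak of the other replicate, at 81.2% and 87.3% for peaks of at least 2000 bp. When WT peaks under 5000 bp apart were joined, 17278 domains formed, and 9.36% of the 12126 with a single peak, 68.6% of the 4551 with 2 to 4, 98.8% of the 515 with 5 to 9 and 100% of the 86 with 10 or more held peaks of both libraries; a domain with more peaks has more chances to do so. KO peaks were found in 0.264%, 1.25%, 5.83% and 27.9% of these classes. The median widths of the classes were 700, 4550, 14750 and 31575 bp, so the later ones had more sequence in which a KO peak could lie. The domain with the most WT peaks, 26 over 54300 bp at Hoxb13 and Ttll6 (chr11:96025651-96079950), had no KO peak, and neither did the next at Foxf1a (25 peaks, 65450 bp). The MHC class I domain around H2-Q10 (21 peaks, 61950 bp) had 0 and 11.1% of its length under KO peaks, against 19.6% and 18.3% in WT. The crowded domains were thus where the 2 WT lists agreed, and they differed among themselves in whether KO replicate 2 had a peak there.

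**Figure D4:**
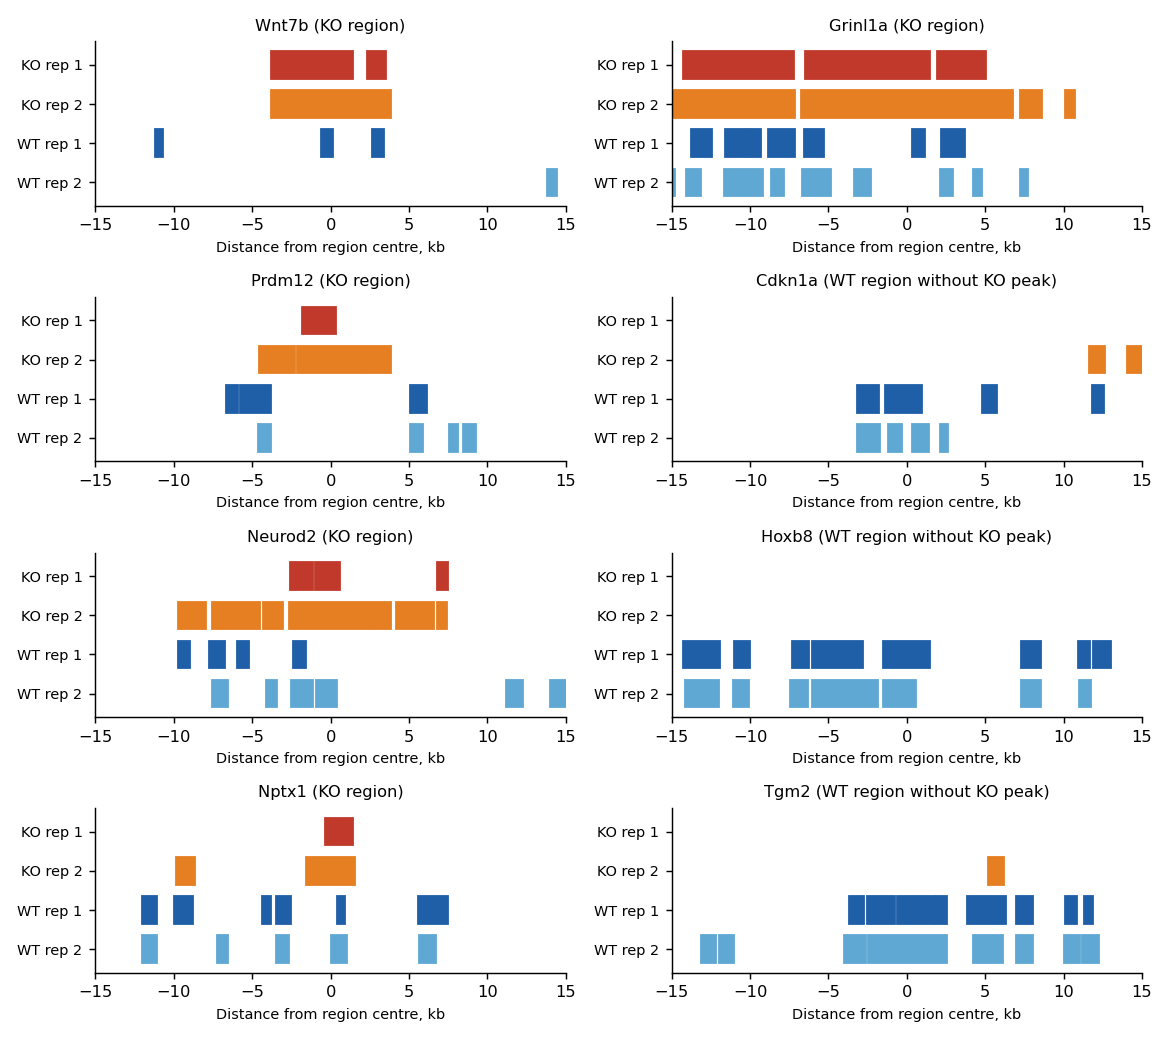
Peaks of the 4 libraries (KO rows above WT) within 15 kb of the centre of 5 regions of both KO lists and 3 WT regions without a KO peak; boxes are peaks, drawn to scale. KO peaks at Wnt7b, Prdm12, Neurod2 and Grinl1a fill stretches in which WT peaks are short or missing; at Nptx1 the window holds 1.8 and 4.3 kb under KO peaks, against 6.25 and 4.55 kb under WT peaks; at Hoxb8 no KO peak lies in the window, and at Cdkn1a and Tgm2 KO replicate 2 has peaks only beside the region.

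At promoters of 21418 autosomal protein-coding genes, a peak was listed for 9 and 84 genes in KO replicates 1 and 2, against 1575 and 1355 in WT replicates 1 and 2. The KO mean was 3.2% of the WT mean (exact permutation test, two-sided, p = 0.333), 5.73% without KO replicate 1 and 0.614% without KO replicate 2. A peak in both KO libraries was found at 8 promoters (0.0374%), in at least 1 KO library at 85 (0.397%), in both WT libraries at 695 (3.24%), and in both WT but no KO library at 670 (3.13%). Of the 85 genes with a KO peak, 25 had a peak in both WT libraries, 30 in a single WT library and 30 in neither. Both WT lists of experiment 1 had a peak at 78 of the 85 and at 24 of those 30, and at 4426 of all 21418. At 5 of the 85, none of the WT lists of either experiment had a peak; they are Hspa8, a heat shock protein, Nop56, a ribosome biogenesis factor, Gm10382, and the neighbouring histone genes Hist1h1e and Hist1h2be, named after their values were seen. In experiment 2 their KO peaks were in replicate 2 alone and covered 0.34%, 16.3%, 13.2%, 17.0% and 17.0% of the window. At Hspa8, Nop56 and Gm10382 both KO lists of experiment 1 had a promoter peak too (32.9% and 28.4%, 23.3% and 25.2%, and 18.2% and 18.3% of the window).

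The 8 genes with a promoter peak in both KO libraries encode WNT ligands, synaptic and surface proteins, enzymes and a neuronal transcription factor. At Prdm12, peaks covered 35.9% and 99.0% of the promoter window in KO replicates 1 and 2, against 0% in both WT libraries. At Wnt7b the values were 54.0% and 78% in KO, against 21.0% and 0% in WT. At Nptx1, a neuronal pentraxin of the synapse, they were 36.0% and 62.0% in KO, against 14.7% and 22.7% in WT. At these 3 genes every KO value of experiment 2 lay above every WT value of it. At Elfn1, a synaptic adhesion protein, they were 17.0% and 36.9% in KO, against 0% in both WT libraries. At Wnt3a, a WNT ligand, they were 20% and 40.9% in KO, against 14.0% and 0% in WT, which did not overlap either. The other 3 overlapped or were lower in KO. Ngfr, the p75 neurotrophin receptor, had 24.0% and 55.0% in KO, against 23.0% and 41.0% in WT. Mgat5b, a glycosyltransferase of the brain, had 21.0% and 31.5% in KO, against 34.0% and 40.0% in WT. Mmp17, a membrane-bound metalloproteinase, had 19% and 25% in KO, against 37.8% and 24.0% in WT. These genes were chosen for their KO peaks, so the values are given without a test.

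Genes of the neural and signaling lists made up most list members with a KO peak. Among 69 transcription factors of neural and ectodermal lineages, a promoter peak was listed in a KO library for 7 (10.1%), each in replicate 2 alone, and in both WT libraries for 6 (8.70%); the shares over all genes are 0.397% and 3.24%. Neurod2 had 0 and 91.0% of its promoter under KO peaks, against 0% in both WT libraries. Olig2, a bHLH factor of oligodendrocytes and motor neurons, had 0 and 71.1% in KO, against 19% and 12.0% in WT, and its neighbour Olig1 had 0 and 57.3% in KO, against 0 and 15% in WT. In these genes KO replicate 2 lay above both WT libraries and KO replicate 1 had no promoter peak. Emx1, a homeobox factor of the cortex, had 0 and 46.0% in KO, and Uncx had 0 and 38.0% in KO, against 0% in both WT libraries for each. Neurog3, a bHLH factor of the endocrine pancreas, had 0 and 17.0% in KO, against 0% in both WT libraries. Six3, a homeobox factor of forebrain and eye, had 0 and 13.0% in KO, against 22.0% and 0% in WT.

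Of the 6 members with a peak in both WT libraries, 5 had no KO peak, against 670 of 695 (96.4%) over all genes. Lhx2, a LIM homeobox factor, had no KO peak, against 61.0% and 43.0% of its promoter under peaks in WT replicates 1 and 2. No KO peak was listed either at Gbx1 (37.0% and 53.9% in WT), Mnx1 (40.0% and 25% in WT) and Pax2 (24.2% and 18.2% in WT). Of the 7 factors with a KO peak, only Olig2 had a peak in both WT libraries.

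Among 52 WNT, FGF, BMP and hedgehog ligands, 6 (11.5%) had a KO promoter peak and 5 (9.62%) a peak in both WT libraries. The shares over all genes are 0.397% and 3.24%. Besides those at Wnt7b and Wnt3a, the KO peaks of these ligands were in KO replicate 2 alone. Ihh, a hedgehog ligand of cartilage, had 0 and 73.0% in KO, against 39.0% and 0% in WT. Shh, the hedgehog ligand of limb and neural tube, had 0 and 21.0% in KO, against 33.0% and 35.0% in WT. Wnt1 had 0 and 11% in KO, against 0% in both WT libraries, and Fgf3 had 0 and 10.8% in KO, against 0 and 14.0% in WT. Among these 4 lists the ligands thus ranged from Wnt1, listed in KO replicate 2 alone, to Shh, covered more in WT. In the WT lists of experiment 1, peaks covered 88.9% and 72.1% of the Wnt1 promoter. No KO peak was listed at Wnt9b (19.3% and 51.7% in WT), Wnt7a (16.0% and 19% in WT) and Wnt9a (9.42% and 18.0% in WT). Of 30 axon guidance genes, 2 (6.67%) had a KO peak, Ngfr among them, and 4 (13.3%) a peak in both WT libraries.

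Other lineage lists had no KO peak. Of 39 HOX cluster genes, which set position along the body axis, 0 had a KO peak and 12 (30.8%) a peak in both WT libraries. The shares over all genes are 0.397% and 3.24%. With 0% in KO at each, WT peaks covered 58.6% and 40.6% of the promoter of Hoxb8, 65.0% and 24.6% of that of Hoxb13, 45.0% and 40.0% of that of Hoxc13, and 53.5% and 29.5% of that of Hoxc10. The HOX list had no gene in the KO lists and the largest WT share of the 14 lists. Of 55 mesoderm and endoderm transcription factors, 0 had a KO peak and 5 a peak in both WT libraries, with Sox18, a factor of endothelial cells, at 45.1% and 70.0% and Tbx2 at 24.0% and 31.0% in WT. Of 23 blood and endothelial genes, 0 had a KO peak and 3 a peak in both WT libraries, among them Gfi1b (17.0% and 38.0%) and Irf8 (7.86% and 43.9%), transcription factors of blood cells. Of 24 epithelial genes, 0 had a KO peak and 1, Krt17, a peak in both WT libraries. With 39 genes or fewer in most lists and 0.397% of all genes with a KO peak, a count of 0 does not set a list apart.

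**Figure D5:**
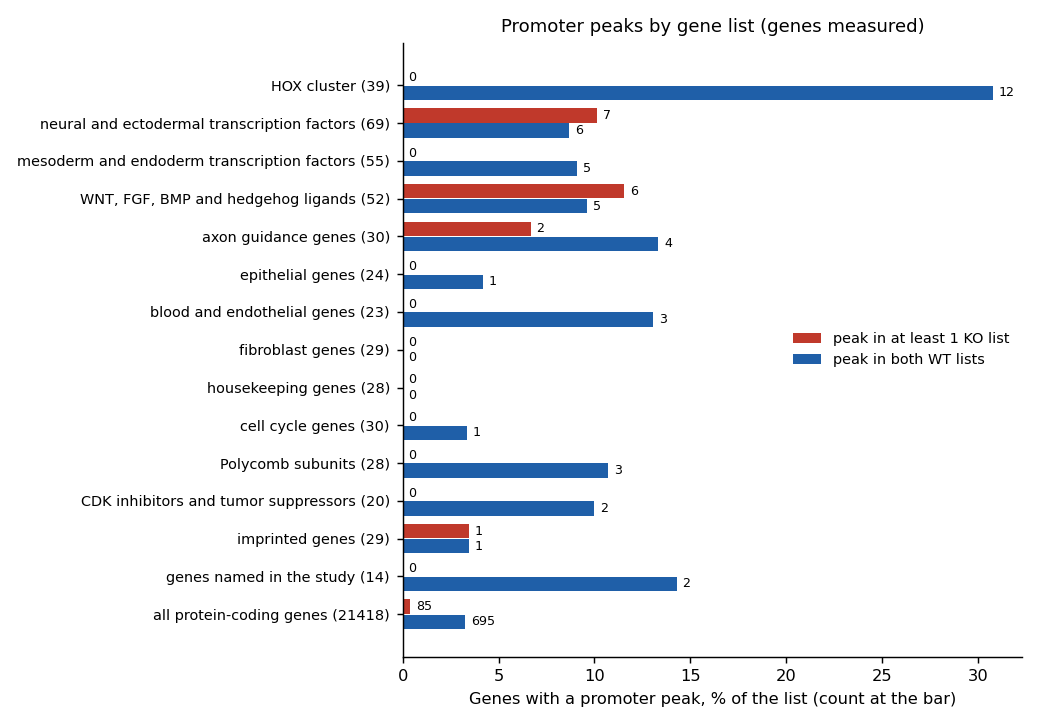
Percent of the measured genes of 14 lists and of all protein-coding genes with a promoter peak in at least 1 KO list (upper bar) and in both WT lists (lower bar), with counts at the bars. KO peaks are found at 7 neural factors, 6 ligands, 2 axon guidance genes and 1 imprinted gene; the HOX list has 12 genes with WT peaks and 0 with KO peaks.

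Genes of the cell cycle, of Polycomb and those the study singled out had no KO peak. Over all genes, 0.397% had a KO peak and 3.24% a peak in both WT libraries. Of the 695 genes with a peak in both WT libraries, 670 (96.4%) had no KO peak. A count of 0 in lists this short therefore does not set them apart. Cdkn1a, the cell cycle inhibitor p21, had 0% of its promoter under peaks in KO, against 72.5% and 56.5% in WT replicates 1 and 2. Within 15 kb of its region peaks covered 0 and 2.00 kb in KO, against 5.55 and 3.95 kb in WT. Dab2ip, a Ras GTPase-activating protein, had 0% in KO, against 16.7% and 12.0% in WT. Of 20 CDK inhibitors and tumor suppressors these were the 2 with a peak in both WT libraries. Of 28 Polycomb subunit genes, 0 had a KO peak and 3 had a peak in both WT libraries, among them Cbx8, at 9.66% and 27.7% of the promoter, and Cbx2, at 26.0% and 30%. Of the other genes the study names, Myc had 0% of the promoter under peaks in KO, against 0 and 16.0% in WT, and Foxf1a 0% in KO, against 17.0% and 0% in WT, and Cpa6, Cdkn2a, Cdh1, Acta2 and Pcna had none in any of the 4 lists. Ezh2, Eed and Suz12, core subunits of PRC2, had no promoter peak in any of the 4 lists, and Ezh1 had 0% in KO, against 0 and 12.0% in WT. Of 30 cell cycle genes, 0 had a KO peak and Cdk4 alone had a peak in both WT libraries (26.2% and 17.2%). Of 28 housekeeping genes, 0 had a KO peak and 0 a peak in both WT libraries. Of 29 imprinted genes, Mkrn3 had a KO peak (0 and 19.8%, against 0% in both WT libraries) and Kcnq1 a peak in both WT libraries (50% and 16.0%).

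The promoters in the widest WT regions without a KO peak belonged to 10 genes, all with 0% in both KO libraries, as the rule that chose them requires. They were Tgm2 (79.6% and 82.6% of the promoter in WT replicates 1 and 2), the serine protease gene Prss22 (73.7% and 83.7%), AF251705 (89.0% and 84.0%), the matrix protein gene Adamtsl2 (95% and 82.0%), Ace, the angiotensin-converting enzyme (42.2% and 44.2%), Zdhhc14 (53.0% in each), Nrtn, a neurotrophic ligand (49.1% and 36.1%), BC034090 (53.4% and 64.4%), and H2-T9 and Gm7030, which share a gene start and therefore a value (34.6% and 41.0%).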

How the data were processed

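H3K27me3 ChIP-seq libraries (antibody clone 7b11, 100-bp reads) were aligned to mm9 with Bowtie2 2.1.0 and peaks were called with MACS2 2.0.10 per the submitters' processing notes. Per the study's methods, duplicates were removed, reads were down-sampled and KO reads were scaled down by a coefficient set from the immunoprecipitated DNA; whether peaks were called on scaled reads is not shown by the lists. The deposited files hold peak positions only, with no score, count or signal, so the reads behind each peak are not known from the lists, although the methods give a common down-sampled read number, and no test on reads could be run. All ends lie on a 50-bp grid and no peak is under 550 bp.

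Duplicate lines (0 in KO, 1 in each WT list) were dropped and the 19 autosomes kept. Overlap meant at least 1 bp. Promoters, CpG and sequence used GENCODE vM1 and NCBIM37, whose chromosome lengths hold all peaks. Library measures were compared by exact permutation tests (Python 3.11.15, pandas 2.3.3, SciPy 1.17.1). Overlap code was tested on simulated intervals. Of the list genes, 454 matched by symbol and 4 by synonym; 2 were not matched, and 5 noncoding and 6 sex-chromosome genes were left out. Intervals cover counting error only. Genes named were those with a promoter peak in both KO libraries, list members with a KO peak or with most WT coverage (up to 4 a list), the 10 in the widest WT regions without a KO peak, and genes the study names, some of which are not reported here; the 10 widest KO and 5 widest WT regions were named too. The members and lists were chosen with earlier results of these data known. Alternatives were peak width, joining, promoter window, overlap, chromosomes, replicate block and leaving out each library.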

Additional observations from a re-analysis of the deposited data

Results flagged for a closer look

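The width, place and CpG density of peaks differed between KO and WT in opposite directions in the 2 experiments; these differences between experiments were not tested. In experiment 2 the median peak width was 1350 and 850 bp in KO, against 750 bp in both WT libraries, a difference of 350 bp, whereas in experiment 1 it was 509 and 598 bp in KO, against 820 and 941 bp in WT. Promoters held 20.3% and 23.6% of the peak bases in KO, against 9.39% and 10.5% in WT, in experiment 2 (a difference of 12.0 percentage points), and 4.20% and 3.37% in KO, against 7.47% and 6.64% in WT, in experiment 1. CpG density over the bases under peaks was 2.43 and 2.16 per 100 bp in KO, against 1.09 and 1.21 in WT, in experiment 2 (a difference of 1.15), and 0.801 and 0.901 in KO, against 1.03 and 0.994 in WT, in experiment 1. GC content, 3.14 percentage points higher in KO in experiment 2, was 44.0% and 45.6% in KO, against 45.3% and 44.9% in WT, in experiment 1, where the groups overlapped. The form of the lists differed too. The narrowest peak was 150 bp in each experiment 1 list, and 550 or 700 bp in those of experiment 2. On a 50-bp grid lay 100% of lines in experiment 2, against 0.0715% to 0.134% in experiment 1. The widths therefore come from unlike lists. Antibody, sequencing platform, list length and list form differed between the experiments and cannot be told apart.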

How the results depend on the processing

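Of 79 alternative values, none changed direction, 66 kept the result and 13 moved it. The 6 library measures kept their direction in all 52 of theirs, and no setting could bring the exact test below its threshold. With peaks of at least 1000 bp alone, the KO values were 4.39% (length), 2.71% (peaks) and 5.33% (promoters) of WT, over 1.5 times those with all peaks. The share of WT regions without a KO peak, 98.1%, was 98.6% when a KO peak had to cover 50% of the region, 99.3% with regions of either WT library and 96.9% with peaks of at least 1000 bp; leaving out a library gave 98.1% to 99.6%. The 695 promoters in both WT libraries became 300 with a window of 1000 bp, 1153 with 5000 bp and 227 with peaks of at least 1000 bp, and 1355 to 1575 in a single WT library. The 8 promoters in both KO libraries became 9 to 84, and the 25 regions 29 to 382, in a single KO library; the 84 and the 382 are KO replicate 2 alone, which shows that these values rest on KO replicate 1. The deviations of same-numbered samples had a correlation of -0.0276 over promoters. Only 85 of the 21418 promoters had a KO peak, so this value cannot tell whether the samples deviated together. With the replicate block the KO values were 2.34% (length), 1.51% (peaks) and 3.39% (promoters) of WT, and the differences 350 bp, 12.0 and 3.14 percentage points (exact sign-flip test, p = 0.5 for each). The median width without either WT replicate still differed by 350 bp. The lists give no reads per peak, so short peaks found in a single list cannot be told apart from sites just under the caller's threshold in the other.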

Other observations

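The order of lines in the lists is not documented, and it followed width and overlap. The Spearman correlation of line number with peak width, across peaks of a library and given as a description, was -0.52 and -0.60 in KO replicates 1 and 2 and -0.49 and -0.48 in WT replicates 1 and 2. Of the 25 peaks of KO replicate 2 that overlapped KO replicate 1, 20 stood in the first 50 of 382 lines. Among the first 25% of lines, 35.6% (WT replicate 1) and 44.7% (WT replicate 2) of peaks overlapped the other WT library, and among the last 25%, 13.9% and 19.7%. WT peaks shared by both replicates had a peak in both WT libraries of experiment 1 in 77.1% and 77.0% of cases, and unshared ones in 64.8% and 62.0%.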
